A study of Mus musculus with 211 samples.

Results

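The chemoattractant and granulocyte colony-stimulating factor (G-CSF) receptors described here are 7 genes, *Cxcr2*, *Cxcr4*, *Csf3r*, *Fpr1*, *Fpr2*, *C5ar1* and *Gpr35*, of the 48709 genes in the count table, and all 7 had a read in at least 1 cell. They were found by Ensembl identifier, and they were chosen from genes whose results in these same cells were already known, with the contrast between *Cxcr4* and *Cxcr2* named in the choice. That contrast, the difference of *Gpr35* between ages and the difference of *Fpr1* between groups of cells are therefore given as descriptions without a test.

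The table holds 211 single cells from the cochleae of CD1 mice with the Lfng-EGFP transgene, a bacterial artificial chromosome in which *Lfng* sequence drives the green fluorescent protein. Cells positive for the fluorescence were sorted and then captured on a microfluidic chip (Fluidigm C1), at postnatal day 60 (P60) in 8 captures and at postnatal day 120 (P120) in 4 captures. The labels name no treatment, both ages carry the transgene, and each capture pools cochleae of several mice, which makes a capture, rather than a cell, the unit of replication. A captured cell had a median of 736455 reads on genes, from 41 to 5361476, and 164 cells had at least 50000 reads. Of the 8 P60 captures, 6 were sequenced in a run without any P120 cell, and only captures 31 and 40 shared runs with the P120 captures 28, 32, 36 and 38. No cell name occurred in more than 1 capture.

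The labels call these cells cochlear supporting cells, and their markers went against that label. At least 3 of 12 supporting cell genes reached 10 reads in 6 of 211 cells, whereas at least 3 of 10 specific and late granule genes of neutrophils (*Camp*, *Ngp*, *Ltf*, *S100a8* and others) did so in 197 cells. The supporting cell genes held 0.0340% of all reads and ranged from 0.00306% to 1.20% of a capture, and the neutrophil granule genes held 16% of the reads. Every gene of both lists had a read in at least 1 cell. Monocyte and macrophage genes were present by the same rule in 4 cells, and hair cell or endothelial genes in 0 cells.

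Neutrophils leave the bone marrow and find inflamed tissue through receptors on their surface. CXCR4 binds CXCL12 and retains immature cells in the marrow, while CXCR2 binds chemokines such as CXCL1 and CXCL2 and favours release. The G-CSF receptor, encoded by *Csf3r*, drives the production of neutrophils. FPR1 and FPR2 sense formylated peptides of bacteria and mitochondria, with annexin A1 among the ligands of FPR2, and C5aR1 senses the complement fragment C5a. GPR35 is a less well understood G protein-coupled receptor that has been linked to the recruitment of neutrophils. All but the G-CSF receptor, a cytokine receptor that works through Janus kinases, couple to G proteins.

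On the GRCm38 assembly (GENCODE vM21 gene models), *Cxcr2* (ENSMUSG00000026180.8) spans chr1:74153989-74161246 on the plus strand, *Gpr35* (ENSMUSG00000026271.15) chr1:92950865-92986391 on the plus strand and *Cxcr4* (ENSMUSG00000045382.6) chr1:128588199-128592293 on the minus strand. *Csf3r* (ENSMUSG00000028859.14) lies at chr4:126024550-126044440 on the plus strand and *C5ar1* (ENSMUSG00000049130.6) at chr7:16246743-16259540 on the minus strand. *Fpr1* (ENSMUSG00000045551.7) at chr17:17876471-17883940 on the minus strand and *Fpr2* (ENSMUSG00000052270.7) at chr17:17887824-17893952 on the plus strand are neighbours that point away from each other, with 3883 bases between their starts.

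RefSeq promoter windows (GRCm38.p6) were matched for all 7 members. The 150 bases just before the annotated start are shown for *Cxcr2* and *Cxcr4*, the receptors set against each other below, and for the neighbours *Fpr1* and *Fpr2*, 5′ to 3′ on the strand of the gene. Capitals mark matches, on either strand, to 4 short motifs. The GC box was searched as GGGCGG. The TATA box, which positions the start of transcription, was searched as TATAAA. The ETS core, with flanking letters as bound by factors such as PU.1, was searched as GAGGAA. The motif of the C/EBP kind was searched as TTNNGNAA, with N for any base. The *Cxcr2* stretch is chr1:74153844-74153993, the *Cxcr4* stretch chr1:128592300-128592449, the *Fpr1* stretch chr17:17883940-17884089 and the *Fpr2* stretch chr17:17887674-17887823.
Cxcr2: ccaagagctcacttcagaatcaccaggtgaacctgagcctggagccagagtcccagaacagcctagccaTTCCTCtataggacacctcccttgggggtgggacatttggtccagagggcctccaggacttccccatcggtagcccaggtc
Cxcr4: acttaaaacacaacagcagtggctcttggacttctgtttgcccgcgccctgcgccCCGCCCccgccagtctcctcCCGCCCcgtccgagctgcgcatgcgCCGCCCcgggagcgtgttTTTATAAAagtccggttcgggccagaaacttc
Fpr1: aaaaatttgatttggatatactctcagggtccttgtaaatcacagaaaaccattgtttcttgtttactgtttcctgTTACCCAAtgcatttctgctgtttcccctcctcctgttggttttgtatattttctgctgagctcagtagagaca
Fpr2: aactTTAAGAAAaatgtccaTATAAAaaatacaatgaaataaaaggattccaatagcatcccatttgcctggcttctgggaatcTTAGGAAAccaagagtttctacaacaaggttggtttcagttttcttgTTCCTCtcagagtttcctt

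Of the members, *Cxcr4* was the only gene with a GC box in this window, with 3 matches, and 28.6% of the 32851 RefSeq promoter windows held at least 1. Its TATA box was read on both strands as overlapping matches 32 to 25 bases before the start. The letters TATAAA in *Fpr2* lay farther off, 130 to 125 bases before the start. This motif was found in 7.57% of windows. The ETS core occurred in *Cxcr2*, *Fpr2*, *Csf3r* and *Gpr35* and in 14.5% of all windows, and the C/EBP motif in *Fpr1* and *Fpr2* and in 22.7%. A match is a run of letters and not a site at which a factor was measured.

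*Csf3r* was the most widely detected receptor, with a read in 184 of 211 cells (87.2%, 95% exact Clopper-Pearson interval 81.9% to 91.4%). *C5ar1* was detected in 168 cells (79.6%, 73.5% to 84.8%) and *Cxcr4* in 164 cells (77.7%, 71.5% to 83.2%). Lower shares were found for *Cxcr2* with 148 cells (70.1%, 63.5% to 76.2%), *Fpr2* with 142 cells (67.3%, 60.5% to 73.6%) and *Fpr1* with 120 cells (56.9%, 49.9% to 63.7%). *Gpr35* was detected in 22 cells (10.4%, 6.65% to 15.4%), and in 3.85% of cells without capture 38. These intervals, and those given below, treat cells as independent draws and leave out the spread between captures. Over captures the share had an SD of 23.7 percentage points for *Cxcr2* and 27.1 for *C5ar1*. The reads carry no molecular identifiers, so a read count is not a count of molecules.

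A single read was a weak mark of expression in these libraries. Only 1 to 9 reads were present in 66 of the 120 cells with *Fpr1*, 63 of the 142 with *Fpr2*, 60 of the 148 with *Cxcr2*, 51 of the 184 with *Csf3r*, 51 of the 168 with *C5ar1*, 41 of the 164 with *Cxcr4* and 16 of the 22 with *Gpr35*. Among 33 libraries with under 10000 reads in all, 18 held a read of *Csf3r* and 10 a read of *Fpr1*. After every cell with at least 50000 reads was thinned to that depth, the shares were 78% for *Csf3r*, 72.6% for *C5ar1*, 70.7% for *Cxcr4*, 51.8% for *Fpr2*, 50.6% for *Cxcr2*, 31.1% for *Fpr1* and 4.27% for *Gpr35*. A level of at least 100 read counts scaled to the library total (CPM, reads of a gene per 1000000 reads on genes), a threshold set after the values were seen and called high here, was reached by *Csf3r* in 63.4% of the 164 deeper cells, *C5ar1* in 89 (54.3%), *Cxcr4* in 72 (43.9%), *Cxcr2* in 58 (35.4%), *Fpr2* in 57 (34.8%), *Fpr1* in 40 (24.4%) and *Gpr35* in 4 (2.44%). A fixed CPM is easier to reach for a longer transcript, so these shares do not rank the genes by expression.

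The reads of each receptor sat in few cells, though not to the same degree. The 5 cells with the most reads held 21.3% of all *Csf3r* reads, 24.7% for *C5ar1*, 29.4% for *Cxcr4*, 42.2% for *Fpr2*, 49.1% for *Cxcr2*, 59.6% for *Fpr1* and 99.5% for *Gpr35*. A P60 cell of capture 31 had 16942 of the 81275 *Cxcr2* reads, and the 3 highest cells of *Fpr1*, from captures 40, 28 and 31, had 13728, 12497 and 10712 of its 89426 reads. The median deeper cell had 239 CPM of *Csf3r*, 153 CPM of *C5ar1*, 68.9 CPM of *Cxcr4*, 18.4 CPM of *Cxcr2*, 14.2 CPM of *Fpr2* and 1.26 CPM of *Fpr1*.

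To compare levels between genes, the CPM of each capture were divided by the length of the merged exons in kilobases. On this per-length scale the median over the 12 captures was 325 for *Csf3r*, 282 for *C5ar1*, 242 for *Cxcr4*, 230 for *Fpr2*, 200.1 for *Fpr1*, 88 for *Cxcr2* and 0.0210 for *Gpr35*. Neighbours in this order were not separated by the spread over captures, except at its foot. *Csf3r* exceeded *C5ar1* in 4 of 12 captures, *C5ar1* exceeded *Cxcr4* in 5, *Cxcr4* exceeded *Fpr2* in 6, *Fpr2* exceeded *Fpr1* in 5 and *Fpr1* exceeded *Cxcr2* in 7. *Cxcr2* exceeded *Gpr35* in 11 of 12 captures.

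Members were also seen together in the same cells. At the 100 CPM level, 17 of 164 cells had none of the 7 receptors, 25 had 1, 32 had 2, 42 had 3, 34 had 4, 11 had 5 and 3 had 6. For each of the 21 pairs the number of cells high in both was set against the number that independence within each capture would give. It was above that number for 15 pairs and below it for 6. *Fpr1* and *Fpr2* were high together in 24 cells against 14.5, that is in 60% of the *Fpr1* cells and 42.1% of the *Fpr2* cells. *Fpr1* and *C5ar1* were high together in 31 cells against 24.5, *Cxcr2* and *C5ar1* in 41 against 33.8, and *Csf3r* and *C5ar1* in 64 against 59.6. *Csf3r* and *Cxcr4* were high together in 47 cells against 47.3.

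**Figure D1:**
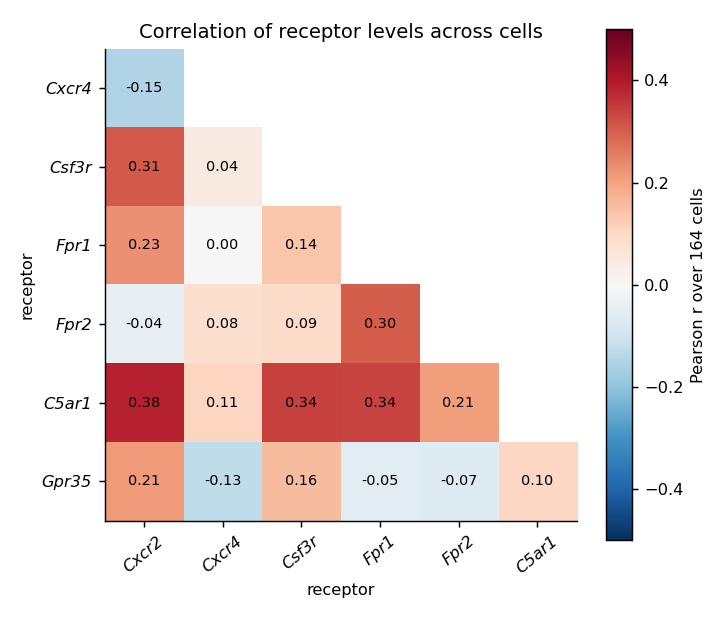
Pearson correlation of log2(reads + 1) between each pair of receptors across the 164 cells thinned to 50000 reads; blue is negative and red is positive. *Cxcr2* with *C5ar1* is the most positive pair at 0.38 and *Cxcr2* with *Cxcr4* the most negative at -0.15.

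Across the thinned cells, the correlations of log2(reads + 1) ran from -0.15 to 0.38 (164 cells, which share captures, runs and cell states). The highest were those of *C5ar1* with *Cxcr2* (0.38), *Csf3r* (0.34) and *Fpr1* (0.34). *Cxcr2* and *C5ar1* correlated at 0.42 among 80 P60 cells and 0.34 among 84 P120 cells, and at 0.34 once each capture was centred on its mean. *Fpr1* and *Fpr2* correlated at 0.15 at P60 and 0.46 at P120. *Fpr2* and *Cxcr2* correlated at -0.04, and at -0.18 among the 121 cells in neither the primary granule nor the basophil class, which are defined below.

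*Cxcr2* and *Cxcr4* were high together in fewer cells than independence within captures gives at equal depth or at 100 CPM, by a small margin, but not by detection without thinning. With at least 1 read as the criterion, 112 of the 164 deeper cells (68.3%, 60.6% to 75.3%) had both, 32 had *Cxcr4* alone, 14 had *Cxcr2* alone and 6 had neither, and independence within captures gives 111 with both. With the cells thinned, 53 had both against 58.7. At 100 CPM, 19 cells (11.6%, 7.12% to 17.5%) were high in both against 25.2, 53 in *Cxcr4* alone, 39 in *Cxcr2* alone and 53 in neither. At 1000 CPM, 20 cells passed for *Cxcr2*, 28 for *Cxcr4* and 3 for both, against 3.69.

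The shortfall was small in each age. At P60, 10 of 80 cells were high in both against 12.4 under independence within captures, with 22 high in *Cxcr2* alone and 18 in *Cxcr4* alone. At P120, 9 of 84 cells were high in both against 12.8, with 17 high in *Cxcr2* alone and 35 in *Cxcr4* alone. The correlation of the thinned levels was -0.05 at P60, -0.22 at P120 and -0.18 with each capture centred. Capture 32 had 9 cells high in *Cxcr2* alone, 5 in *Cxcr4* alone and 0 in both, whereas capture 31 had 5 cells high in both beside 7 and 5. Captures 28 and 38 had the most cells high in *Cxcr4* alone, with 12 of 31 and 12 of 21 deeper cells. In capture 36 it was 6 of 11.

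**Figure D2:**
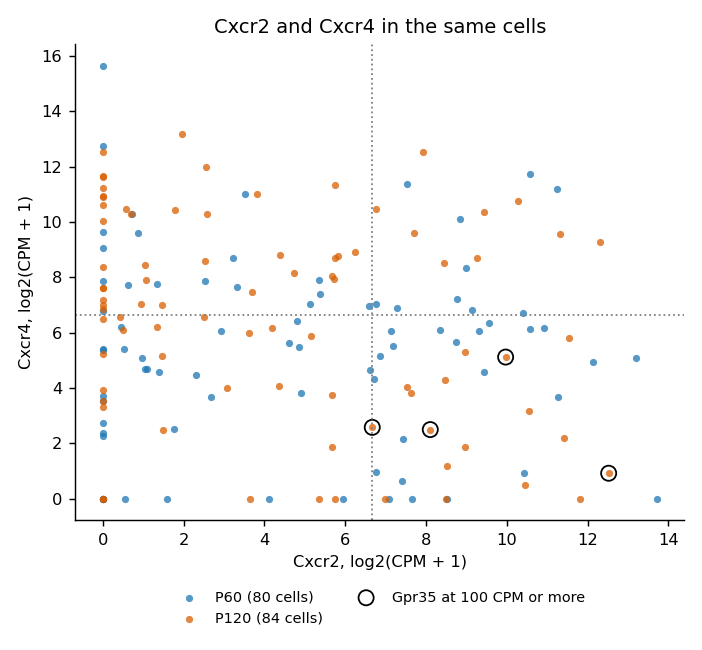
*Cxcr4* against *Cxcr2* in the 164 cells with at least 50000 reads, each as log2(CPM + 1), with age by colour, dotted lines at 100 CPM and the 4 cells high in *Gpr35* ringed. The upper right field holds 19 cells, the upper left 53, the lower right 39 and the lower left 53, and all 4 ringed cells lie at the lower right. The leftmost ringed cell lies just past the line, at 100.8 CPM of *Cxcr2*.

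Cells grouped by their *Cxcr2* and *Cxcr4* levels held the other receptors in different shares. Of the 39 cells high in *Cxcr2* alone, 69.2% were high in *C5ar1*, 74.4% in *Csf3r* and 41% in *Fpr1*. Of the 53 cells high in *Cxcr4* alone, the shares were 50.9%, 60.4% and 18.9%. *Fpr2* went the other way, with 35.9% against 41.5%. The 19 cells high in both had 73.7% for *C5ar1*, 78.9% for *Csf3r* and 31.6% for *Fpr1*, and the 53 cells high in neither had the lowest shares of the 4 states for these 3 genes, 39.6%, 52.8% and 15.1%.

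Cell state moved with these groups, and its part in them was not tested. Cell cycle genes were present (at least 3 of 6 genes at 10 reads) in 6 of the 39 *Cxcr2*-only cells, 14 of the 53 *Cxcr4*-only cells, 1 of the 19 cells high in both and 20 of the 53 high in neither. The median number of genes in the thinned cells was 886, 1210, 966 and 1412 in the same order. Among the 121 cells in neither the primary granule nor the basophil class, 17 were high in both receptors against 21.1, and the correlation of thinned levels was -0.20.

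Every cell high in *Gpr35* was high in *Cxcr2* and in *Csf3r*, and none was high in *Cxcr4*. The top *Gpr35* cell, from capture 38, had 15644 *Gpr35* reads with 6579 of *Cxcr2*, 842 of *Csf3r*, 1771 of *C5ar1* and 1 of *Cxcr4*. The next cell, from capture 36, had 1801 *Gpr35* reads with 118 of *Cxcr2* and 2 of *Cxcr4*. A cell of capture 32 with 216 *Gpr35* reads had 1098 of *Cxcr2* and 37 of *Cxcr4*. The last, also of capture 32, had 81 of *Cxcr2* and 4 of *Cxcr4*. Its *Cxcr2* level of 100.8 CPM lay just above the limit of 100 CPM. With 4 cells this is a description of those cells, and 0 of the 53 *Cxcr4*-only cells allows a share of up to 5.66% (3 counts of the total).

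The genes whose thinned levels followed each receptor most closely were taken from 2134 genes with a read in at least 20% of the 164 thinned cells, as a description. *Cxcr2* was followed by *Cd300c2* (r = 0.48), *Ccl6* (0.41), *Gcnt1* (0.39), *Tyrobp* (0.39) and *C5ar1* (0.38). *Csf3r* was followed by *Tnfaip2* (0.55), *Il1b* (0.54), *Il1r2* (0.51), *Clec4d* (0.50) and *Cxcl2* (0.47), and *C5ar1* by *S100a11* (0.49), *Btg2* (0.47), *Il1b* (0.46), *Tyrobp* (0.45) and *Il1r2* (0.44). *Csf3r* and *C5ar1* thus shared *Il1b*, which encodes a cytokine, and *Il1r2*, which encodes the decoy receptor for it. For *Csf3r* and *Tnfaip2* the correlation was 0.50 at P60 and 0.63 at P120.

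The lists of the formyl peptide receptors had 1 gene in common. *Fpr1* went with *Adam8* (0.48), *Retnlg* (0.47), *Mmp8* (0.46), *Clec4e* (0.44) and *Grina* (0.44), and *Fpr2* with *Lyz2* (0.43), *Mmp8* (0.43), *Lgals3* (0.42), *S100a9* (0.42) and *S100a8* (0.40). The shared gene was *Mmp8*, the neutrophil collagenase. *Cxcr4* had looser partners, *Myh9* (0.37), *Actb* (0.32), *Nedd9* (0.31), *Gm11400* (0.29) and *Kdm6b* (0.25), and the value for *Myh9*, a non-muscle myosin, was 0.21 at P60 and 0.54 at P120. For *Gpr35* the list was *Nr4a1* (0.48), *Atf3* (0.34), *Rdx* (0.33), *Clec7a* (0.30) and *Ppp1r15a* (0.28), and it rests on 7 thinned cells with a read.

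Between ages, the levels of 6 receptors overlapped widely. The test was edgeR's quasi-likelihood test on counts summed per capture (8 P60 and 4 P120 captures), with p-values adjusted by Benjamini-Hochberg over the 8346 genes tested. It called 10 genes (0.12%), 5 higher (0.0599%) and 5 lower (0.0599%) at P120. *Gpr35* was the only member among them, in a contrast already known when it was chosen, so nothing is read from its call. The median log2 fold change of the 7 members was 0.14, beside 0.26 over all genes tested. In sums over a capture, fewer cells with a receptor and less of it per cell cannot be told apart.

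*Cxcr2* in the P60 captures ran from 1.20 to 996 CPM with a median of 186, and the P120 captures 28, 32, 36 and 38 had 217, 331, 80.2 and 576 CPM. All P120 values lay inside the P60 range. Its low end of 1.20 CPM was 4 reads in the 3 cells of capture 17c, and capture 10c held 119240 reads in all. The lowest of the other P60 captures had 49.2 CPM, in capture 40. The log2 fold change of P120 over P60 was 0.14 ± 1.49 (SE; edgeR adjusted p = 1.0).

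*Csf3r* ran from 33.5 to 2796 CPM at P60, with a median of 1346, and was 561, 595, 1336 and 1141 CPM in the P120 captures. *C5ar1* ran from 0.602 to 1425 CPM at P60, with a median of 474, and was 456, 872, 1772 and 1026 CPM at P120. Only the *C5ar1* level of capture 36 exceeded the P60 range. The low ends at P60 were 4 *Csf3r* reads in capture 10c and 2 *C5ar1* reads in capture 17c. Apart from those captures, the lowest P60 levels were 344 and 343 CPM, both in capture 40. Their log2 fold changes were -0.13 ± 1.33 and 1.06 ± 1.30 (SE; edgeR adjusted p = 1.0 for each).

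The formyl peptide receptors were lowest in capture 32 among the P120 captures. *Fpr1* was 509.8, 567 and 527 CPM in captures 28, 36 and 38 and 14.7 CPM in capture 32, against a P60 range from 0 to 904 CPM with a median of 105.03. *Fpr2* was 430.0, 301 and 435 CPM in captures 28, 36 and 38 and 58.4 CPM in capture 32, against 0.301 to 2349 CPM with a median of 273 at P60. The P120 captures lay inside the P60 range for both genes. Their log2 fold changes were 0.87 ± 1.41 and -0.76 ± 1.45 (SE; edgeR adjusted p = 1.0 for each).

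*Cxcr4* showed no stable direction between ages. The P60 captures ran from 53.1 to 48096 CPM with a median of 407, and the P120 captures had 345, 207, 2059 and 1065 CPM. The highest value belonged to capture 10c, in which 13 cells held 119240 reads in all and 1 cell held the *Cxcr4* reads. The log2 fold change of P120 over P60 was -3.96 ± 1.49 (SE; edgeR adjusted p = 0.49), and without capture 10c it was 1.36 (adjusted p = 1.0). Within the runs that hold both ages, captures 31 and 40 had 281 and 57.2 CPM, and the fold change was 3.09 ± 1.54 on the log2 scale (adjusted p = 0.671 over that fit). High levels were seen in 28 of 80 deeper P60 cells (35%) and 44 of 84 P120 cells (52.4%), with capture shares of 47% ± 26.5 (SD, n = 8) and 55.3% ± 24.4 (SD, n = 4).

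**Figure D3:**
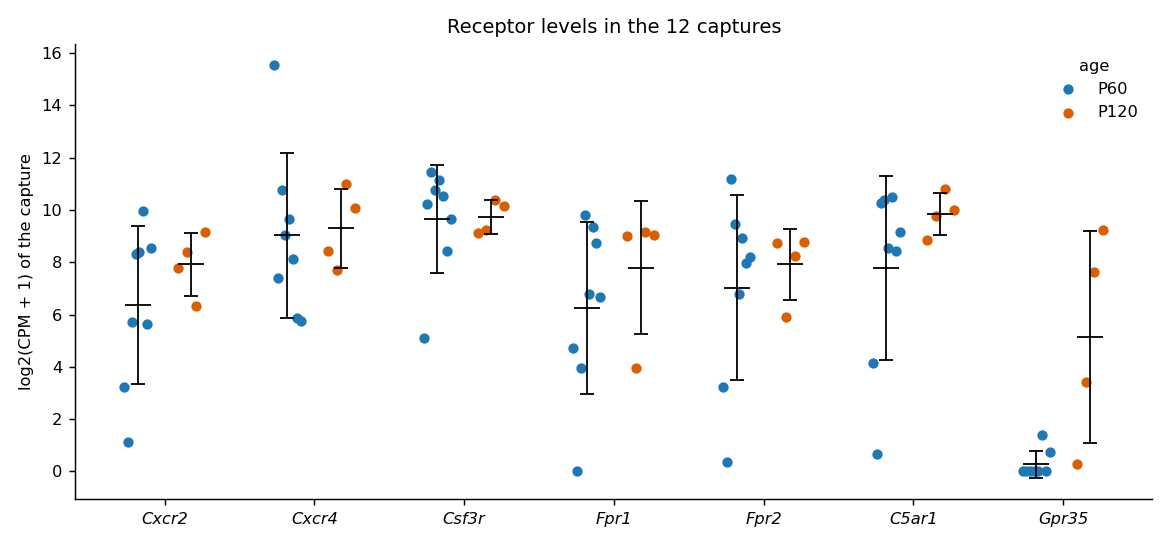
Level of each receptor in the 8 P60 and 4 P120 captures as log2(CPM + 1) of the summed cells, with 1 point for a capture and the mean ± SD in black. P60 and P120 points overlap for every receptor, *Gpr35* included, where the P120 points run from 0.203 to 600.5 CPM.

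*Gpr35* reads came mostly from P120 and from few cells. The P60 captures ran from 0 to 1.64 CPM with a median of 0, and captures 28, 32, 36 and 38 had 0.203, 9.70, 197 and 600.5 CPM, so that capture 28 lay inside the P60 range. A read was present in 2 P60 cells (1.96%) and 20 P120 cells (18.3%). None of the 80 deeper P60 cells was high, a count that allows at most 3.75% (3 counts of the total), and 4 of 84 P120 cells were.

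A single P120 cell of capture 38 held 87.3% of the 17912 *Gpr35* reads. Without it capture 38 had 2.75 CPM, and the mean of the P120 captures moved from 202 ± 281 to 52.5 ± 96.6 CPM (SD, n = 4). Of the other 15 cells of capture 38 in the sequencing run of that cell, 13 had *Gpr35* reads, from 1 to 24 and 68 in all, and the smallest such library had 449 reads on genes. In the other run of the same capture 1 of 13 cells had a read, in the same run 6 of 72 cells of other captures did, and among the remaining 110 cells 1 did. Whether the low counts beside the top cell come from those cells was not tested.

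Levels were next compared between classes of cells set by their primary granule genes and their basophil and mast cell genes. Among the 164 deeper cells, a primary granule class was defined by at least 3 of 5 primary granule genes (*Elane*, *Mpo*, *Prtn3*, *Ctsg*, *Ms4a3*) at 10 or more reads, and a basophil class by at least 3 of 6 basophil and mast cell genes in the same way. Cells of both kinds went to the list with the larger sum. This gave 27 primary granule cells (15 at P60 and 12 at P120), 16 basophil cells (1 at P60 and 15 at P120) and 121 remaining cells. Of the 16 basophil cells 14 also met the primary granule rule, and all 27 primary granule cells had specific and late granule genes present. Of the 164 cells, 12 had 2 primary granule genes and 15 had exactly 3, and so lay near the limit of the class. Primary granules form at the promyelocyte stage, before the specific granules.

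All 6 receptors that could be tested were lower in the primary granule class, and *Fpr2* passed the test. Of all genes tested, 48% had a fold change below 0. *Fpr2* was high in 52 of 121 remaining cells (43%, 34% to 52.3%) and 3 of 27 primary granule cells (11.1%, 2.35% to 29.2%). *Fpr1* was high in 38 of the remaining cells (31.4%, 23.3% to 40.5%) and in 0 of 27 primary granule cells, a count that allows at most 11.1% (3 counts of the total) or 12.8% (exact interval). *C5ar1* was high in 65.3% and 22.2%, *Cxcr2* in 40.5% and 18.5%, *Csf3r* in 71.9% and 59.3%, and *Cxcr4* in 44.6% and 33.3% of the remaining and the primary granule cells. *Gpr35* had no read in the 27 primary granule cells and was not tested.

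**Figure D4:**
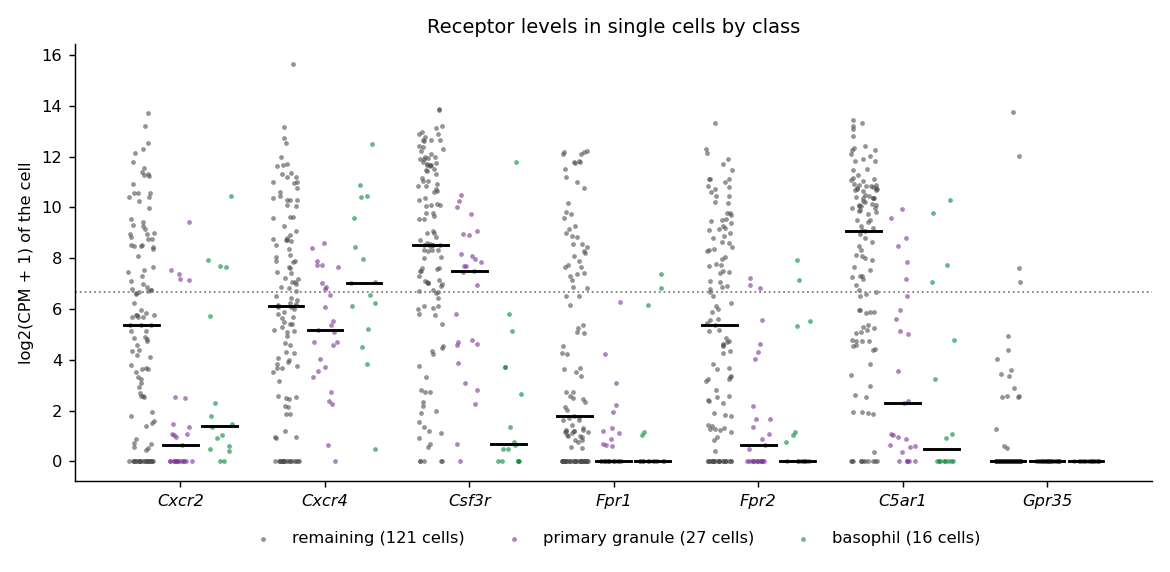
Level of each receptor as log2(CPM + 1) in single cells of the 3 classes; black bars are medians and the dotted line is 100 CPM. The median for *C5ar1* is 538 CPM in the remaining cells and 3.89 CPM in the primary granule class, and that for *Cxcr4* is highest in the basophil class at 130 CPM.

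For the test, counts were summed per capture and class in the captures with at least 3 cells of each class, namely 28, 40 and 9c, and fitted with the capture as a block. edgeR called 94 of 9803 genes, 84 lower (0.857%) and 10 higher (0.102%) in the primary granule class. Of the 6 members tested, *Fpr2* was called lower. *Fpr1* also passed the threshold, but its difference was known when it was chosen, so nothing is read from its call. The members as a set were chosen with earlier results of these cells known, so the call of *Fpr2* is no independent test. The p-value of *Fpr2* rests largely on the spread shared over all genes. The median log2 fold change of the 6 members was -3.20, beside 0.13 over all genes tested. Fitted fold changes rest on rescaled library sizes (TMM) and the printed CPM do not, so their ratios need not match.

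*Fpr2* was 711, 402 and 459 CPM in the remaining cells of captures 28, 40 and 9c and 13.8, 16.3 and 0 CPM in their primary granule cells. It was lower in 3 of 3 captures and the classes did not overlap. The share of all genes without overlap is not given here, for this gene or those below. The log2 fold change was -7.29 ± 1.56 (SE; edgeR adjusted p = 0.000772), and it depended on capture 9c, without which it was -6.00 (adjusted p = 0.313), and on the capture block, without which it was -6.25 (adjusted p = 0.261). *Fpr1* was 852, 684 and 154 CPM in the remaining cells and 1.62, 0.129 and 6.03 CPM in the primary granule cells of the same captures. The classes did not overlap, and the log2 fold change was -9.28 ± 1.70 (SE), given as a description because a lower level of *Fpr1* in a cluster of these cells was known when it was chosen.

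The other receptors fell short of the threshold. *Csf3r* was 809, 466 and 1141 CPM in the remaining cells and 204, 151 and 242 CPM in the primary granule cells, with a log2 fold change of -2.67 ± 1.03 (SE; edgeR adjusted p = 0.314). *C5ar1* was 704, 519.9 and 709.6 CPM against 115, 61.7 and 459 CPM (log2 -2.83 ± 1.15, edgeR adjusted p = 0.353). The classes did not overlap in either gene, and *Csf3r* was at 331 CPM over all 27 primary granule cells.

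*Cxcr2* was 349, 67.8 and 447 CPM in the remaining cells and 1.93, 19.8 and 332 CPM in the primary granule cells (log2 -3.56 ± 1.75, edgeR adjusted p = 0.523). The fold change ran from -5.47 without capture 9c to -1.99 without capture 28. With 2 genes as the limit of the classes it was -1.81, and *Cxcr2* in capture 28 was then higher in the primary granule class, at 334 CPM against 155 CPM. *Cxcr4* was 367, 68.7 and 64.1 CPM against 129, 37.6 and 38.2 CPM (log2 -1.76 ± 1.59, edgeR adjusted p = 0.832). The classes overlapped in both genes, and *Cxcr4* had the smallest fold change of the 6 members. Whether the members differ from each other in this change was not tested.

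**Figure D5:**
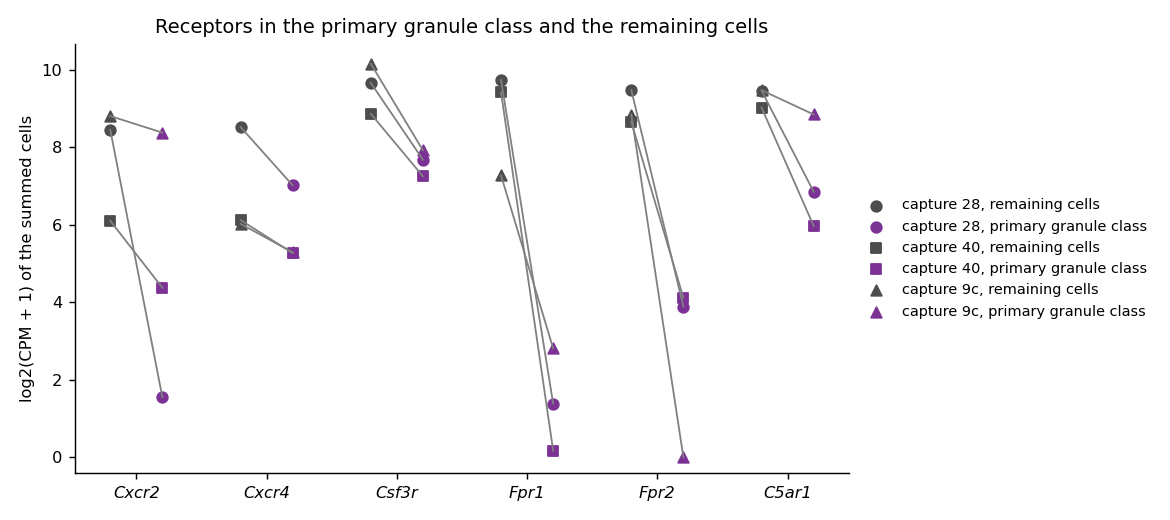
Level of 6 receptors as log2(CPM + 1) of the summed cells in the remaining cells (dark) and the primary granule class (purple) of captures 28, 40 and 9c, with a line joining the classes of a capture. Every line runs downward, and for *Fpr1* and *Fpr2* the highest purple point is 16.3 CPM.

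The classes also differed in the number of genes detected and in library depth. The median thinned cell had 2513 genes in the primary granule class and 872 among the remaining cells, and the median library had 1810799 and 870631 reads. All 10 specific and late granule genes were called lower in the primary granule class and all 5 genes that define it were called higher, the latter by construction. The part of gene number or depth in the receptor differences was not tested. After thinning, *Fpr2* remained called (log2 -5.67, adjusted p = 0.0121).

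In the basophil class, with 15 of its 16 cells at P120, *Cxcr4* was the receptor most often high and *Csf3r* was rarely so. *Cxcr4* was high in 9 of 16 cells (56.3%, 29.9% to 80.2%) and at 483 CPM over all of them, against 589.9 CPM in the remaining cells. *Csf3r* was high in 1 of 16 cells (6.25%, 0.158% to 30.2%) and at 31.6 CPM, against 1268 CPM in the remaining cells. *Cxcr2*, *C5ar1*, *Fpr1* and *Fpr2* were high in 4, 4, 2 and 2 of the 16 cells, and *Gpr35* had no read, a count that allows at most 18.8% (3 counts of the total) or 20.6% (exact interval). Too few captures held basophil cells at both ages for a comparison, and class and age cannot be told apart here.

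Of 66 further genes of the pathway (10 ligands, 24 other receptors, 22 signalling genes and 10 genes of receptor desensitization), 46 were tested between ages. Of these, 0 were called by edgeR or by DESeq2, and 1 had an unadjusted edgeR p under 0.05. Over all 8346 genes tested, edgeR called 10, DESeq2 called 8, and 443 had an unadjusted edgeR p under 0.05. Between the classes 50 were tested, and edgeR called 5 lower in the primary granule class and 0 higher. DESeq2 called 15 of the 50, of which 1 was higher. Over all 9803 genes tested between the classes, edgeR called 94 and DESeq2 called 1750. The pathway lists too were chosen with earlier results of these cells known, so these calls are no independent test. The ligand genes *Cxcl2*, a chemokine that CXCR2 binds, and *Anxa1*, annexin A1, had log2 fold changes of -4.30 ± 1.04 and -2.95 ± 0.50 (SE; edgeR adjusted p = 0.00604 and 2.03e-06). *Ccr1*, another chemokine receptor, and *Hcar2*, the niacin receptor, had -6.00 ± 1.16 and -6.67 ± 1.56 (SE; edgeR adjusted p = 9.73e-05 and 0.00362), and *Jak1*, a Janus kinase, had -3.38 ± 0.96 (SE; adjusted p = 0.0471). All 5 had a fold change below 0 under each alternative run, but 0 of the 5 were called without capture 9c and 0 without the capture block. With a limit of 2 genes for the classes 1 was called, *Anxa1*, and without captures 28 and 40 in turn 2 and 3 were.

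Ligand and receptor transcripts were found in the same set of cells for some pairs and not for others. *Cxcl2* was detected in 173 of 211 cells and *Anxa1* in 203 cells. *Cxcl12*, the ligand of CXCR4, was detected in 19 cells, *Cxcl1* in 5, *Csf3*, the ligand of the G-CSF receptor, in 1 and *Cxcl5* in 0 cells. Among other chemoattractant receptors, *Ccr1* was detected in 167 cells, *Hcar2* in 132, *Ccrl2* in 127 and *Ptafr*, the receptor of platelet-activating factor, in 122 cells. *Cxcr1*, the closest relative of *Cxcr2*, was detected in 3 cells, *C5ar2* in 74 and *Fpr3* in 1. Reads shared between such relatives could not be told apart from the count table.

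The authors' fluorescence score of each cell was set beside the receptors. The median normalized fluorescence score of the deeper cells was 378 in 89 cells high in *C5ar1* and 248 in the 75 others, and 381 in 58 cells high in *Cxcr2* and 293 in the others. For *Cxcr4* it was 313 in 72 cells and 364 in the 92 others. The correlation of the score with the thinned level was 0.24 for *C5ar1*, and between 0.035 and 0.15 for the other members. For *Cxcr4* it was 0.059, so its medians and its correlation pointed in opposite directions. Cells were pooled over captures and runs for these values.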

How the data were processed

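The authors sorted GFP-positive cochlear cells, captured them on the Fluidigm C1 system and aligned the reads with STAR to mm10, with the EGFP sequence added, and they removed endothelial cells and outlying cells before deposit. The deposited table holds raw read counts per gene and cell, not normalized, and a metadata table holds the authors' normalized GFP score (whose derivation is not given in the sources used here), the capture, the sequencing run and a count of uniquely mapped reads. The 92 spike-in sequences were left out of library totals.

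Gene symbols were assigned to 48349 of 48709 identifiers. CPM were computed on gene totals. Cells were grouped by age from the labels and summed by capture from the metadata. The members and all gene lists were chosen with earlier results of these data known. Lists, classes and named genes followed fixed rules: all members, the 5 most correlated genes of each, and pathway genes that were called or counted. 
Tests used edgeR 4.0.16 (R 4.3.3; TMM, filterByExpr, quasi-likelihood F test, false discovery rate 0.05) on sums of counts. The test was also run on simulated data with known fold changes, in which every gene had the same spread. That run does not show how the test behaves at the spread of these data. The SE is the absolute log2 fold change divided by the square root of F. With so few captures, the spread of a gene was set almost wholly from all genes. DESeq2 1.42.0 was an alternative. In the class test the capture pairs the classes, since both come from the same pooled mice. The counting of strand and of shared reads is not given in the sources used here. Nothing in the labels ties cells to single mice, so captures stand as the replicates in the tests. The spread behind the p-values is largely that shared over all genes, rather than the gene's own spread between captures. In the class test the capture block also takes out differences in level between captures.

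Depth ranged from 41 to 5361476 reads per cell. Cells with at least 50000 reads were thinned to 50000 reads by random draws where shares were compared. Doublets had been gated out by scatter in the sort and no caller was run here. Alternatives were other normalization, filters, thinning, runs and leaving out each capture; a level of 100 CPM and the removal of the top *Gpr35* cell were added after the data were seen. Promoter windows are RefSeq GRCm38.p6.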

Additional observations from a re-analysis of the deposited data

Results flagged for a closer look

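The level or the share of cells with a read was examined over the captures of each age for the 7 receptors, 28 groups of values in all. In 6 groups a capture lay far from the others by Dixon's criterion. Chance flags about 1 in 20 groups only when values are normally distributed. The CPM were skewed, and the level and share of a gene come from the same cells, so the 6 cannot be set against that rate. For *Cxcr4* at P60, capture 10c stood at 48096 CPM, against 53.1 to 1735 CPM in the other 7 captures, and at the low end of the share of cells with a read, with 7.69% against 60% to 95.8%. For *Cxcr2* at P60, capture 31 had 996 CPM, against 1.20 to 374 CPM. For *Fpr2* at P60, capture 19c had 2349 CPM, against 0.301 to 707 CPM. For *Fpr1* at P120, capture 32 was lowest at 14.7 CPM, against 509.8 to 567 CPM in the other 3 captures. For *Gpr35* at P60, capture 31 had 1.64 CPM, against 0 to 0.680 CPM.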

How the results depend on the processing

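Between ages 10 genes were called, and the count was 1 with RLE normalization (0 higher, 1 lower, with the median log2 fold change of all genes moved from 0.26 to -0.10), 22 without a filter on low counts (17 higher, 5 lower), 0 with sequencing run as a term, 2 in the runs that hold both ages, 1 after thinning and 1 to 16 with a capture left out (1 without 10c, 2 without 36, 5 without 20c or 38, 6 without 32 or 40, 16 without 21c). The direction of the age difference turned, with no call gained, for *Cxcr2* (log2 -0.11 with DESeq2, -0.10 with RLE, -0.95 with run as a term, -0.87 in the runs with both ages; -0.49 to 0.96 with a capture left out), *Cxcr4* (0.70 with DESeq2, 3.04 with run as a term, 3.09 in the runs with both ages; -5.44 to 1.36), *Csf3r* (0.34 with run as a term, 0.40 in the runs with both ages; -0.99 to 0.26) and *Fpr1* (-0.032 with run as a term). With a capture left out, *C5ar1* ran from -0.051 to 1.41 and *Fpr2* from -1.21 to 0.46. Between classes 94 genes were called, and the count was 1750 with DESeq2 (906 higher, 844 lower), 4 without the capture block (all higher) and 10 to 70 with a capture left out (10 without 9c, 59 without 40). Without the replicate block neither *Fpr1* (log2 -8.82) nor *Fpr2* (-6.25, adjusted p = 0.261) was called; *Fpr2* ran from -8.77 to -6.00 with a capture left out, and *Fpr1* from -11.35 to -7.32. The fitted fold change of the 6 members tested was below 0 under each alternative run, with *Cxcr2* moved from -3.56 to -2.07 without the block, -1.81 with 2 genes as the limit of the classes and -5.47 to -1.99 with a capture left out. The share of cells with both *Cxcr2* and *Cxcr4* was 68.3%, and it was 34.8% at 10 reads, 32.3% after thinning, 11.6% at 100 CPM (chosen after the data were seen) and 65.1% to 69.9% with a capture left out. The causes of these changes were not tested, except that fewer captures or genes enter the fits that leave some out. The precision is limited by 3 captures in the class test and 4 at P120, and by depth, which thinning lowered further.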
